A study of Homo sapiens with 9 samples.

Results

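The genes described here encode the 5 NF-kB subunits (NFKB1, NFKB2, RELA, RELB and REL) and 5 of their inhibitors and regulators (NFKBIA, NFKBIB, NFKBIE, BCL3 and TNFAIP3). They are 10 of the 67927 genes with values in a table of raw read counts, taken by gene symbol, each as its row on a main chromosome. The counts are RNA-seq of THP-1, an established human line of acute monocytic leukaemia that grows in suspension. Cells were harvested after 48 h with the solvent alone (control, 3 libraries), with lupeol at 50 µmol/L (lupeol 50, 3 libraries) or with lupeol at 80 µmol/L (lupeol 80, 3 libraries). Lupeol is a triterpene of plants. The treatment label of 1 lupeol 50 library lacks the micro prefix of the unit. The solvent is not named in the labels, no untreated cells were included, and no stimulus other than lupeol is given. The labels do not say whether the 3 libraries of a group are separate cultures, and p-values therefore reflect the spread over these libraries, possibly technical spread alone.

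NF-kB is a family of dimeric transcription factors that carries signals from cytokine receptors and pattern recognition receptors to the genes of inflammation and cell survival. In the canonical route, a kinase complex marks IkB proteins for destruction, which frees dimers such as that of RELA with p50, the product of NFKB1. In the non-canonical route, the precursor encoded by NFKB2 is cut to p52, which pairs with RELB. Several of the genes for subunits and inhibitors are themselves NF-kB targets, so that the pathway restrains its own activity. Monocytes and macrophages use it for their response to microbes.

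A promoter each of NFKB2, NFKBIA, TNFAIP3 and BCL3 is printed. These were chosen because they hold matches to the kB consensus, the sequence that NF-kB dimers are known to bind. They belong to a subunit and 3 inhibitors whose values follow. Sequences are from RefSeq on build GRCh38.p14, from 250 bases before to 50 bases after a transcription start, 5′ to 3′ on the strand of the gene. Capitals mark the 10 bases of each match, found on either strand. The consensus searched was GGGRNYYYCC, where R is A or G, Y is C or T and N is any base.
NFKB2 (chr10:102394328-102394627, plus strand): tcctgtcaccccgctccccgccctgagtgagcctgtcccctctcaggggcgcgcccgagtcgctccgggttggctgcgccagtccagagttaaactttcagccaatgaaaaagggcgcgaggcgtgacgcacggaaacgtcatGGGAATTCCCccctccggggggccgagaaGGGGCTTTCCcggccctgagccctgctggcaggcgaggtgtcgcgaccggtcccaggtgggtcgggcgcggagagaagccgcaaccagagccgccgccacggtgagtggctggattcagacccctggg
NFKBIA (chr14:35404700-35404999, minus strand): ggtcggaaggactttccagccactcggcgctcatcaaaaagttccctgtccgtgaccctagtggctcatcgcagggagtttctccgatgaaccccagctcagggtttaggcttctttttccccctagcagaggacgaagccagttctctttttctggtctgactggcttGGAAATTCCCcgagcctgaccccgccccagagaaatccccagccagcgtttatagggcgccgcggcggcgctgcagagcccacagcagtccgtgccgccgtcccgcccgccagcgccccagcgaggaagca
TNFAIP3 (chr6:137867009-137867308, plus strand): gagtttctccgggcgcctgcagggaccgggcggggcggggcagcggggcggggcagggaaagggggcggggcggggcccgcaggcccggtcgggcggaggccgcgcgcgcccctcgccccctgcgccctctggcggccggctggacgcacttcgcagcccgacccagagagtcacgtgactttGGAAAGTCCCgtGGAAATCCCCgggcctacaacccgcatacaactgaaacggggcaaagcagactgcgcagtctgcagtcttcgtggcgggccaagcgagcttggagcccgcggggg
BCL3 (chr19:44748458-44748757, plus strand): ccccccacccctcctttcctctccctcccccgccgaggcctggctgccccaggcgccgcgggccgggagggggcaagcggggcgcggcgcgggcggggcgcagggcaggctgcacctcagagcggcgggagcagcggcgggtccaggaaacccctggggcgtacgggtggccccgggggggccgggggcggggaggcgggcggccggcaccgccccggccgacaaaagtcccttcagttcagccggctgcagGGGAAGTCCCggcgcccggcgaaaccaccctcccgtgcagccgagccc
In the windows printed, the matches of NFKB2 begin 107 and 78 bases before the start. That of NFKBIA begins 81 bases before it, and those of TNFAIP3 67 and 55 bases before it. NFKB2 has further starts: the window at 102395705 holds matches 176 and 21 bases before the start. The window at 102394110, where the gene begins in the count table, holds no match. The match of BCL3 begins at base 3 of the transcript.

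The consensus was also found for REL (GGAAATTCCC, 46 bases before the start), NFKB1 (GGGAATTTCC, 49 bases before) and NFKBIB (GGGAATTTCC, 28 bases before). In all, 7 of the 8 genes with a promoter sequence (87.5%) held at least 1 match, RELA being the exception. They had 13 such windows, of which 8 (61.5%) held a match. Over all genes with a promoter sequence, 2500 of 27305 (9.16%) held one, and over all windows 7.73% did. RELB and NFKBIE had no promoter sequence here. A match describes the letters in the window and is not evidence of binding.

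The table placed RELB at 45001449 to 45038198 on chromosome 19, plus strand, and BCL3 241404 bases before it on the same strand. NFKBIB lies on chromosome 19 as well, NFKBIE and TNFAIP3 on chromosome 6, NFKB1 on chromosome 4, NFKB2 on 10, RELA on 11, REL on 2 and NFKBIA on 14. The table names no build. Start and end of 3 of the 10 genes were the same in GENCODE 29 on GRCh38, and the others differed at one end or both.

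Library totals ran from 26134744 to 38430299 counts, and lupeol 80 replicate 1 was the deepest. A pair of control columns shared a heading, so the controls are called 1, A and B. The labelled cell type was checked against its markers, of which 11 of 12 reached 1 CPM (a count scaled to the library size) in at least 1 library, SPI1 stood between 287.7 and 454 CPM, and CD68, the exception, stayed between 0.0747 and 0.456 CPM. All 5 epithelial markers were at 0. The summed B cell list, most of it PAX5, was at 19.8 to 36.4 CPM in lupeol 80 and 44.7 to 52.1 CPM in control libraries, with the B cell marker MS4A1 at 0 in all 9. CEBPA, a transcription factor of the myeloid lineage, fell at lupeol 80 (log2 fold change -0.80 ± 0.15 SE, edgeR's quasi-likelihood test, adjusted p = 0.023). Of the 11 markers of the labelled cell type that were tested, 6 lay below control in their fitted value at lupeol 80 (48.9% of all genes). An unadjusted p under 0.05 (edgeR) was found for 4, all lower (AZU1, CEBPA, MPO and SPI1), where 10.7% of all genes were. For 3 (CEBPA, MPO and SPI1) all lupeol 80 libraries lay below all controls, where 12.9% of all genes did. SPI1 stood at -0.32 ± 0.12 on the log2 scale (edgeR, adjusted p = 0.168). Only CEBPA was called, where 1.14% of all genes were, and its lowest value, 160.4 CPM, was in lupeol 80 replicate 1. CEBPA, SPI1, MPO and the B cell sum were thus lower at the dose at which RELB was, and their part in the results was not tested. In such bulk RNA, fewer cells of a kind and less RNA per cell cannot be told apart.

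At lupeol 80, RELB fell and was the only 1 of the 10 genes to pass the test against control. The fitted values of 9 of the 10 lay below control, where 48.9% of all genes tested did, with a median log2 fold change of -0.46, and REL was the exception. At lupeol 50 no gene of the 10 passed, and the median was -0.05. Levels are TMM-scaled CPM computed from the counts, fold changes are log2 values with their standard error (SE), and a gene was called at an adjusted p under 0.05 over all 17568 genes tested. All 10 genes passed the filter on low counts.

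RELB, the partner of p52 in the non-canonical route, had 41.5, 60.4 and 33.8 CPM in lupeol 80 libraries, against 80.4, 84.3 and 73.5 CPM in control libraries. All 3 lupeol 80 libraries lay below all 3 controls. The difference was -0.81 ± 0.17 on the log2 scale (edgeR, adjusted p = 0.040). In the same contrast 201 of 17568 genes (1.14%) were called, 150 of them lower (0.854%) and 51 higher (0.29%). Lupeol 50 libraries had 75.6, 60.7 and 59.0 CPM, between the groups and overlapping both, at -0.29 ± 0.17 against control (edgeR, adjusted p = 0.52). The means were 79.4 ± 5.47 CPM in control, 65.1 ± 9.11 CPM in lupeol 50 and 45.2 ± 13.7 CPM in lupeol 80 (SD, n = 3 each).

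The RELB call was close to the threshold. It was lost without control 1, A or B (adjusted p of 0.181, 0.194 and 0.0558), without lupeol 50 replicate 2 or 3 (0.0574 and 0.072) and without lupeol 80 replicate 1 or 3 (0.129 and 0.109). It was kept without lupeol 50 replicate 1 (edgeR, adjusted p = 0.0306) and without lupeol 80 replicate 2 (edgeR, adjusted p = 0.0156). The log2 fold change stayed between -1.07 and -0.63 in these 9 fits. Without control B and lupeol 80 replicate 1 together it was -0.81 ± 0.26 (edgeR, adjusted p = 0.121). The test of any difference among the 3 groups gave an adjusted p of 0.074 for RELB (edgeR), and it called 0 of the 10 and 41 of all genes (0.233%).

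NFKB2, whose product is both an inhibitor as its precursor p100 and a subunit as p52, had 100.5, 118.6 and 57.0 CPM in lupeol 80 libraries, against 157.0, 158.3 and 154.8 CPM in control libraries. The controls lay close together, and every lupeol 80 library lay well below them. The difference was -0.77 ± 0.21 (edgeR, adjusted p = 0.089). Lupeol 50 libraries had 157.8, 128.6 and 127.8 CPM, and they overlapped the controls through replicate 1. NFKB2 passed without lupeol 80 replicate 2 (-0.99, edgeR, adjusted p = 0.0316) and in 2 other settings, with DESeq2 and without the filter on low counts.

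RELA, the subunit with the main activating role in the canonical dimer, had 83.1, 99.7 and 86.2 CPM in lupeol 80 libraries, against 110.3, 109.6 and 103.0 CPM in control libraries. These groups did not overlap, but the difference was small at -0.26 ± 0.11 (edgeR, adjusted p = 0.198). At lupeol 50 it had 111.1, 105.6 and 101.9 CPM, which spanned the controls (-0.02 ± 0.11). NFKB1, which encodes p105 and its product p50, had 160.1, 176.4 and 110.4 CPM in lupeol 80 libraries, against 169.8, 166.5 and 188.2 CPM in control libraries. Only lupeol 80 replicate 3 lay far from the controls, and the difference of -0.23 ± 0.14 was not called (edgeR, adjusted p = 0.386). Without that library it was -0.048 ± 0.11. Lupeol 50 libraries, at 202.3, 189.4 and 177.8 CPM, overlapped the controls.

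REL, the subunit c-Rel, known for its role in lymphocytes and in interleukin-12 genes of myeloid cells, had 46.1, 31.5 and 16.2 CPM in lupeol 80 libraries, against 25.3, 29.03 and 23.8 CPM in control libraries. Lupeol 80 replicate 1 was the highest and replicate 3 the lowest of all 9 libraries. The difference of 0.27 ± 0.30 was not called (edgeR, adjusted p = 0.672), and without lupeol 80 replicate 1 it was -0.13. Lupeol 50 libraries had 26.5, 23.1 and 25.4 CPM, within the range of the controls save for replicate 2, which lay just below it.

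**Figure D1:**
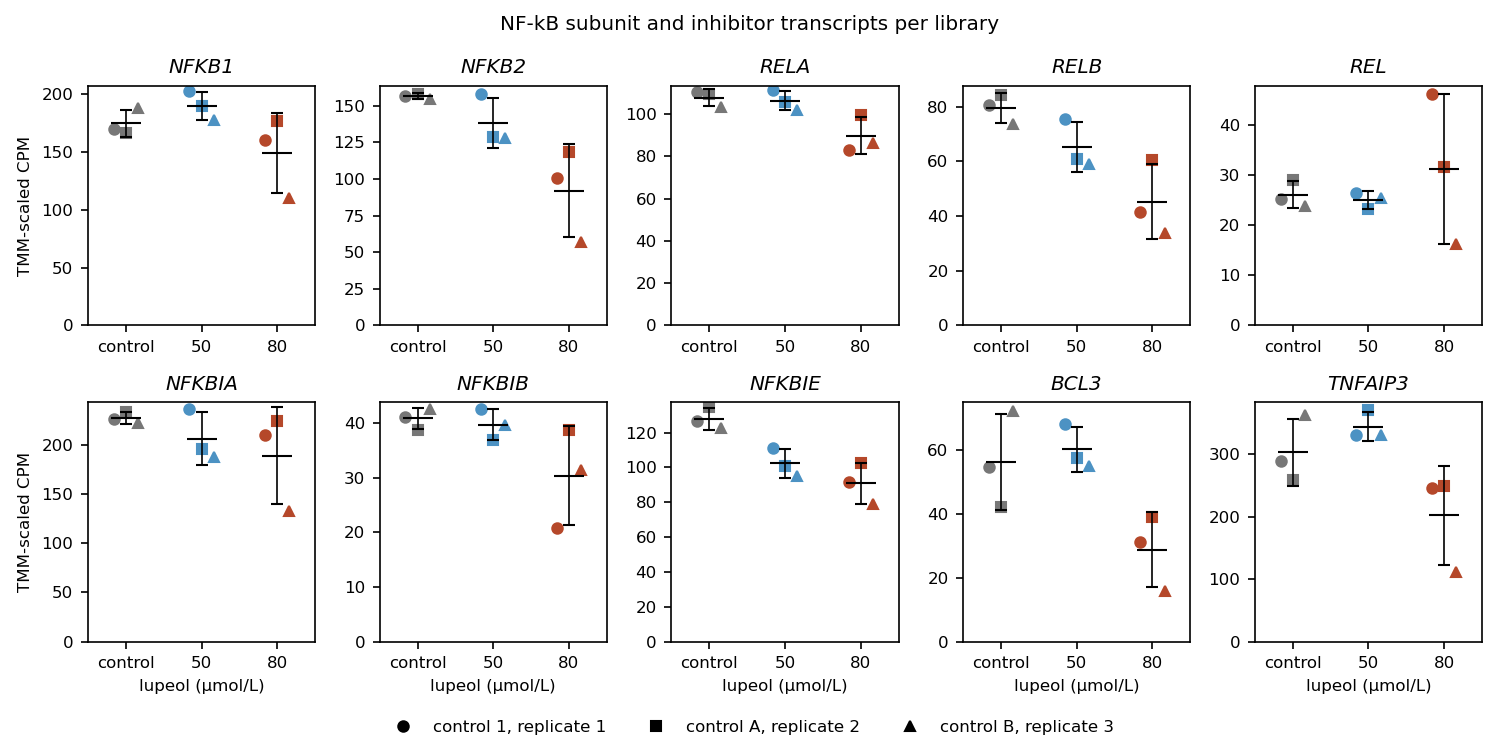
Level of each gene in TMM-scaled CPM, in panels of their own with a vertical axis from 0, against the lupeol dose from control to 80 µmol/L. Points are libraries and bars the group means. RELB lies lower in all 3 lupeol 80 libraries than in any control, and lupeol 80 replicate 3 is the lowest point for 8 of the 10 genes.

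Among the inhibitors, NFKBIE (IkB epsilon, which holds RELA and c-Rel dimers in the cytoplasm) came closest to the threshold. It had 91.4, 102.3 and 78.9 CPM in lupeol 80 libraries, against 126.4, 134.7 and 122.5 CPM in control libraries, a difference of -0.49 ± 0.12 (edgeR, adjusted p = 0.051). Lupeol 50 libraries had 111.3, 100.8 and 95.0 CPM, all below the controls as well (-0.32 ± 0.12, edgeR, adjusted p = 0.290). It was the only gene of the 10 whose libraries lay below control without overlap at both doses. Of all genes tested, 9.63% lay below all controls at lupeol 50 and 12.9% at lupeol 80. The share that did so at both doses was not counted. Both doses were set against the same controls, so the results at the doses are not independent. In alternative settings the lupeol 80 difference of NFKBIE passed in 5 of 17, with adjusted p between 0.00867 and 0.247.

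BCL3, an atypical IkB that acts in the nucleus with p50 and p52 dimers, had the largest fitted difference of the 10. It had 31.2, 39.2 and 15.98 CPM in lupeol 80 libraries, against 54.6, 42.1 and 72.3 CPM in control libraries. The groups did not overlap, though lupeol 80 replicate 2 came near control A, and the controls themselves were widely spread. The difference of -0.97 ± 0.32 was not called (edgeR, adjusted p = 0.159). Lupeol 50 libraries, at 68.2, 57.6 and 54.9 CPM, lay inside the range of the controls, and lupeol 80 differed from them by -1.06 ± 0.32 (edgeR, adjusted p = 0.197).

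TNFAIP3 encodes A20, a ubiquitin-editing enzyme that ends signalling from TNF and Toll-like receptors and is a textbook NF-kB feedback gene. It had 246.4, 249.1 and 111.2 CPM in lupeol 80 libraries, against 288.7, 258.2 and 362.2 CPM in control libraries. Replicates 1 and 2 of lupeol 80 lay just under control A, while replicate 3 was far lower, and the difference of -0.58 ± 0.28 was not called (edgeR, adjusted p = 0.299). Without replicate 3 it was -0.28 ± 0.13. At lupeol 50 TNFAIP3 had 331.6, 370.6 and 330.3 CPM, all above controls 1 and A (0.18 ± 0.28).

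NFKBIA encodes IkB alpha, the main rapid feedback inhibitor. It had 210.0, 223.7 and 132.5 CPM in lupeol 80 libraries, against 226.5, 233.3 and 221.8 CPM in control libraries, with overlap and a difference of -0.27 ± 0.16 (edgeR, adjusted p = 0.369). Without lupeol 80 replicate 3 it was -0.060 ± 0.12. Lupeol 50 libraries had 236.4, 195.3 and 187.0 CPM. NFKBIB, which encodes the slower IkB beta, had 20.9, 38.8 and 31.5 CPM in lupeol 80 libraries, against 41.2, 38.8 and 42.6 CPM in control libraries. Its lowest value was in lupeol 80 replicate 1, not replicate 3, and the difference was -0.43 ± 0.17 (edgeR, adjusted p = 0.182). Without replicate 1 it was -0.22. Lupeol 50 libraries, at 42.7, 36.9 and 39.7 CPM, overlapped the controls.

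Read over the 10 genes at lupeol 80 against control, 6 had an unadjusted p under 0.05, all lower (NFKB2, RELA, RELB, NFKBIB, NFKBIE and BCL3), where 10.7% of all genes tested were lower by that rule. The 3 libraries lay below all controls for 6 genes (NFKB2, RELA, RELB, NFKBIE, BCL3 and TNFAIP3), where 12.9% of all genes did. The median was -0.26 for the subunits and -0.49 for the inhibitors, where that of all genes was 0.01. These counts describe the 10 genes and carry no test.

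At lupeol 50 against control, 0 of the 10 and 0 of 17568 genes (0.0%) were called by edgeR. DESeq2 called 0 of the 10 and 210 of 14776 genes (1.42%), and limma-voom 0 of both. An unadjusted p under 0.05 was found for 1 of the 10, NFKBIE, and for 12.4% of all genes. Only NFKBIE lay below all controls, where 9.63% of all genes did, and 7 of the 10 lay below control in their fitted value, where 50.5% of all genes did.

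The direct comparison of the doses, lupeol 80 against lupeol 50, called 0 of the 10 and 8 of all genes (0.0455%) in edgeR. DESeq2 called 1 of the 10 and 422 of 14122 genes (2.99%), and limma-voom 0 of the 10 and 2 of 17568 genes (0.0114%). An unadjusted p under 0.05 was found for 7, all lower at lupeol 80, where 8.18% of all genes were. The groups did not overlap for 5 (NFKB1, NFKB2, RELA, BCL3 and TNFAIP3), each lower at lupeol 80, where 9.63% of all genes were. The differences were -0.35 ± 0.14 for NFKB1, -0.58 ± 0.21 for NFKB2, -0.24 ± 0.11 for RELA, -1.06 ± 0.32 for BCL3 and -0.77 ± 0.28 for TNFAIP3, with adjusted p between 0.197 and 0.305 (edgeR). Without lupeol 80 replicate 3 they were -0.17 for NFKB1, -0.33 for NFKB2, -0.22 for RELA, -0.78 for BCL3 and -0.47 for TNFAIP3, so that library moved those of NFKB1, NFKB2 and TNFAIP3 by over 1.5 times. RELB differed by -0.53 ± 0.17 with overlap (edgeR, adjusted p = 0.181). In all, 9 of the 10 lay lower at lupeol 80 in their fitted value, where 50.0% of all genes did. The contrasts share libraries, so they do not repeat each other independently.

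**Figure D2:**
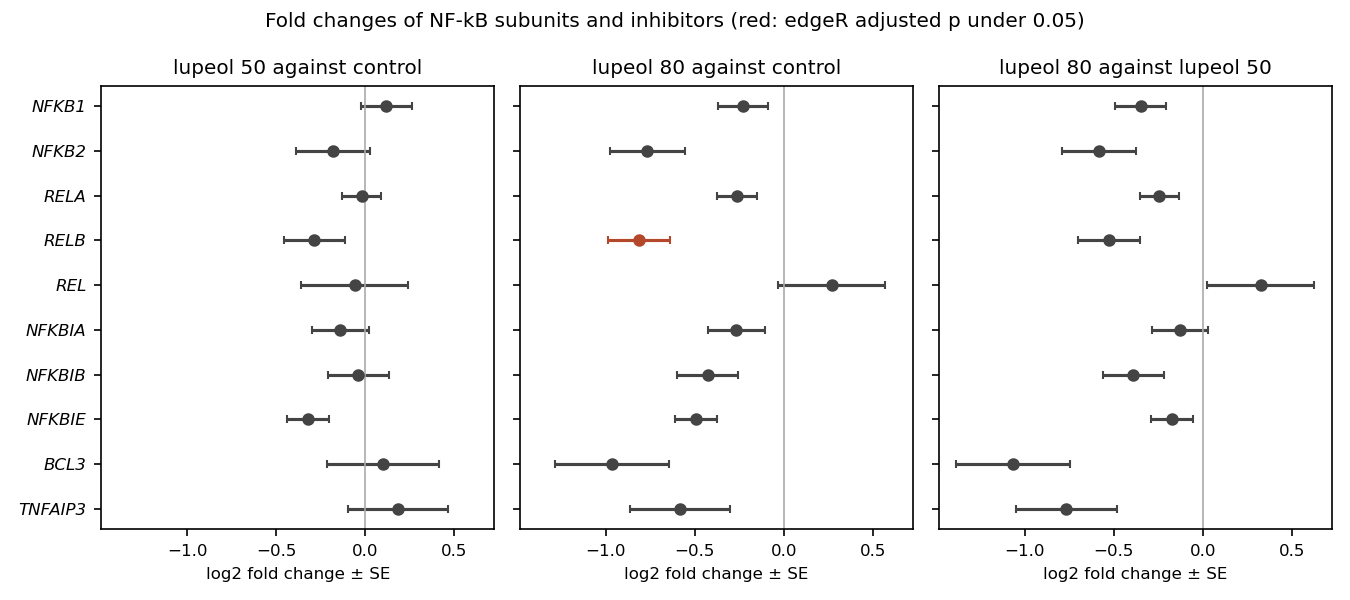
Fold changes (log2, with bars of 1 SE) of the 10 genes for lupeol 50 against control, lupeol 80 against control and lupeol 80 against lupeol 50, with a called gene in red. At lupeol 80 against control the values run from -0.97 (BCL3) to 0.27 (REL), and RELB at -0.81 is the only one called.

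Lupeol 80 replicate 3 stood apart for these genes, though not for them alone. It was the lowest of the 9 libraries for 8 of the 10 genes (80%), where it was lowest for 2614 of 17568 genes (14.9%). The exceptions, RELA and NFKBIB, were lowest in lupeol 80 replicate 1, the deepest library, which was the lowest for 19.6% and the highest for 20.2% of all genes. Without lupeol 80 replicate 3 the lupeol 80 difference was -0.63 ± 0.16 for RELB, -0.51 ± 0.13 for NFKB2 and -0.39 ± 0.12 for NFKBIE. It was -0.23 for RELA, -0.45 for NFKBIB, -0.67 for BCL3 and 0.58 for REL, beside the values for NFKB1, NFKBIA and TNFAIP3 given above, and none of the 10 was called. Across all genes the number called at lupeol 80 against control was 201 with every library, 43 without lupeol 80 replicate 3, 386 without lupeol 80 replicate 2, 0 without control 1 and 1 without control A.

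**Figure D3:**
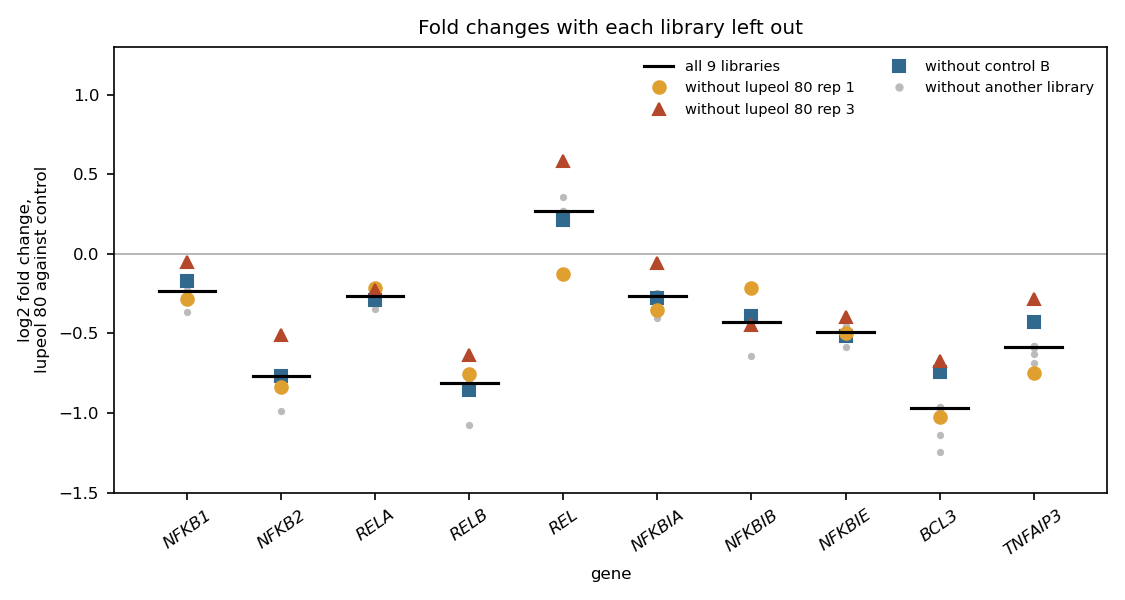
Fold change (log2) of each of the 10 genes at lupeol 80 against control with all 9 libraries and with each library left out in turn. Values stay below 0 in every fit for 9 genes, and that of REL is -0.13 without lupeol 80 replicate 1.

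The 10 genes were placed on a scale that corrects for length, TPM, computed from the summed exon length in the table. In control libraries NFKBIA stood highest at 397 ± 13.0 TPM, followed by TNFAIP3 at 249.7 ± 41.7, NFKBIE at 205 ± 11.3, NFKB2 at 138 ± 2.79, NFKB1 at 114 ± 6.55, RELB at 109 ± 8.41, RELA at 81.7 ± 3.84, BCL3 at 75.3 ± 19.6, NFKBIB at 72.8 ± 3.00 and REL at 8.19 ± 0.893 TPM (SD, n = 3). The ranges of the libraries overlapped between TNFAIP3 and NFKBIE, NFKB1 and RELB, RELA and BCL3, and BCL3 and NFKBIB. These neighbours in the order cannot be told apart, while the ranges of RELA and NFKBIB did not overlap. NFKBIA was highest and REL lowest in all 3 groups. On the CPM scale, which does not correct for length, TNFAIP3 stood first in the controls at 303 ± 53.5 CPM, ahead of NFKBIA at 227 ± 5.79 CPM, and REL stood last again at 26.0 ± 2.69 CPM.

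The ratios between subunits differed between groups. The TPM ranges of NFKB1 and NFKB2 overlapped in lupeol 50 and in lupeol 80, and those of RELA and RELB in lupeol 80. In control libraries NFKB2 stood above NFKB1, with a TPM ratio of 1.25, 1.28 and 1.11. The ratio was 1.05, 0.916 and 0.969 in lupeol 50 and 0.847, 0.907 and 0.696 in lupeol 80, and the 3 groups did not overlap, with the ratio lowest at the higher dose. The ratio of RELB to RELA was 1.32, 1.39 and 1.29 in control, 1.23, 1.04 and 1.05 in lupeol 50 and 0.903, 1.10 and 0.709 in lupeol 80. All 6 lupeol libraries lay below all 3 controls, while the doses overlapped each other. The ratio of REL to RELB also separated the groups, at 0.0720 to 0.0789 in control, 0.0802 to 0.0987 in lupeol 50 and 0.110 to 0.255 in lupeol 80. That of NFKBIA to NFKBIB overlapped, at 5.11 to 5.90 in control, 4.62 to 5.43 in lupeol 50 and 4.13 to 9.87 in lupeol 80. The ratios are given as a description, with no test. How often other gene pairs separate the groups in this way was not counted.

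The summed TPM of the 5 subunits was 440.4 to 457 in control, 401 to 465 in lupeol 50 and 233 to 400.4 in lupeol 80. The share of NFKB1 in that sum was 23.8% to 27.5% in control, 28.2% to 30.3% in lupeol 50 and 29.6% to 31.9% in lupeol 80, and that of RELB 22.7% to 25.4%, 20.5% to 22.2% and 17.4% to 21.4% over the same groups. REL made up 1.68% to 2.00% in control, 1.78% to 2.03% in lupeol 50 and 2.13% to 4.43% in lupeol 80, the highest value being that of replicate 1. NFKBIA held 4.73 to 4.96 times the TPM of RELA in control, 4.22 to 4.90 times in lupeol 50 and 3.54 to 5.82 times in lupeol 80, with overlap between all groups.

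**Figure D4:**
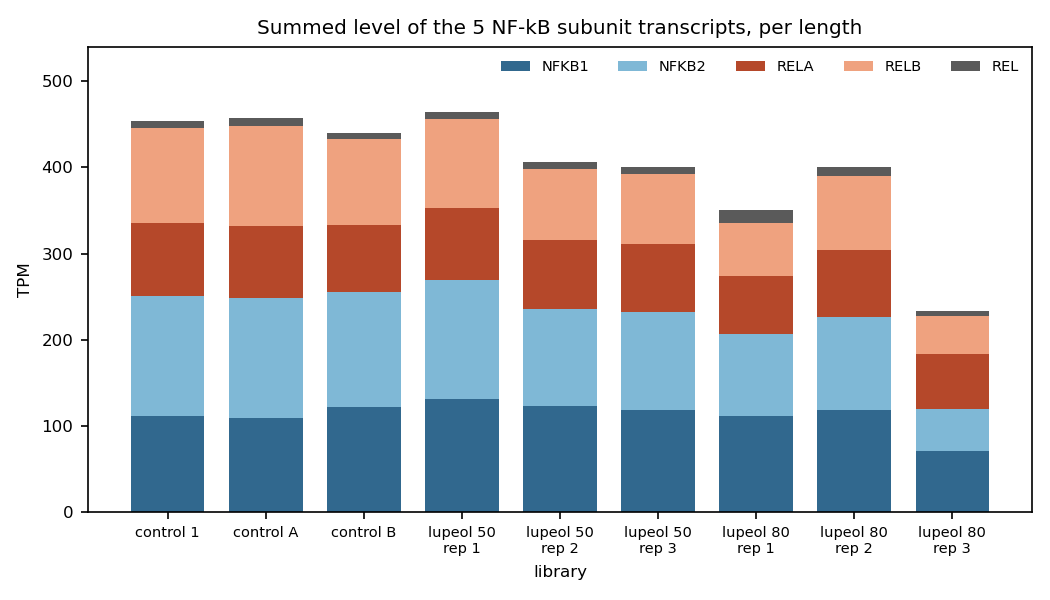
Composition of the 5 NF-kB subunits in each library on the TPM scale, from control to lupeol 80, as stacked bars that start at 0. The sum is 440.4 to 457 TPM in control and 233 to 400.4 TPM in lupeol 80, and lupeol 80 replicate 3 is the lowest bar.

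The rest of the pathway was read from 5 further lists: 31 kinases and adaptors upstream of IkB, 20 other negative regulators, 15 receptors, 10 ligands and 28 target genes known in monocytes. Of their 99 genes tested by edgeR, 2 target genes were called at lupeol 80 against control, both higher, 0 at lupeol 50 and 0 between the doses. An unadjusted p under 0.05 was found for 37 of the 99 at lupeol 80, where 19.5% of all genes had one, for 20 at lupeol 50 (12.4% of all genes) and for 25 between the doses (15.4%). DESeq2 called 16 of 97 at lupeol 80, 4 higher and 12 lower, where it called 896 of 13467 genes in all (6.65%). It called 2 of 98 at lupeol 50 (1.42% of all genes) and 7 of 98 between the doses (2.99%). limma-voom called 2 of 99 at lupeol 80, PTGS2 and CXCL8 (0.603% of all genes), 0 at lupeol 50 (0.0%) and 0 between the doses (0.0114%). At lupeol 80 the median was -0.09 for the kinases and adaptors, -0.08 for the other negative regulators, -0.03 for the receptors, -0.22 for the 8 ligands tested and -0.00 for the 25 targets tested. The median of -0.46 of the 10 subunit and inhibitor genes lay below each of these.

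The target genes went both ways. PTGS2, which encodes the inducible cyclooxygenase, rose at lupeol 80, with 10.1, 13.4 and 11.4 CPM in lupeol 80 libraries against 5.40, 4.97 and 5.42 CPM in control libraries (1.15 ± 0.18, edgeR, adjusted p = 0.017). Its call was kept in 15 of 17 alternative settings and lost without control 1 or control A (adjusted p of 0.12 and 0.0976). CXCL2, a chemokine that attracts neutrophils, rose too, with 6.03, 10.5 and 6.29 CPM in lupeol 80 libraries against 2.43, 1.69 and 1.23 CPM in control libraries (2.09 ± 0.44, edgeR, adjusted p = 0.046). Its call was kept in 7 of 16 settings. It was lost with limma-voom (2.08, adjusted p = 0.0545) and without control B and lupeol 80 replicate 1 together, and in single omissions without any 1 control or lupeol 80 library and without lupeol 50 replicate 3 (adjusted p between 0.0565 and 0.229). The CXCL2 promoter holds GGGAATTTCC 78 bases before its start, the same letters as in NFKB1, and that of PTGS2 holds no exact match in its window. The PTGS2 window does hold GGGGACTACC, which departs from the consensus by an A in place of C or T. Near matches were not counted for any gene.

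CXCL8, which encodes interleukin-8 and was among the targets with the highest level, had 280.4, 555 and 386 CPM in lupeol 80 libraries and 99.2, 72.2 and 155 CPM in control libraries (1.90 ± 0.42, edgeR, adjusted p = 0.086). The groups did not overlap. DESeq2 and limma-voom called it, and it passed in 3 of 17 alternative settings, with adjusted p between 0.00144 and 0.286. PLEK, the platelet protein pleckstrin and the other target of high level, had 424, 462 and 383 CPM in lupeol 80 libraries and 451, 415 and 627 CPM in control libraries (-0.23 ± 0.15). Between the doses, GADD45B, a stress and survival gene, came nearest to the threshold, with 11.2, 13.1 and 13.5 CPM in lupeol 80 libraries and 19.8, 21.2 and 20.2 CPM in lupeol 50 libraries (-0.70 ± 0.14, edgeR, adjusted p = 0.060). EBI3, a subunit of interleukin-27, followed at -0.88 ± 0.24 (edgeR, adjusted p = 0.109).

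At lupeol 50 the targets had the highest median of these lists, 0.52, though edgeR called 0 of 25, with an unadjusted p under 0.05 for 8 higher (6.4% of all genes) and 1 lower (6.02%). CXCL1, a neutrophil chemokine, had 3.06, 3.42 and 3.63 CPM in lupeol 50 libraries and 1.10, 1.48 and 1.53 CPM in control libraries (1.29 ± 0.36, edgeR, adjusted p = 0.206). CD44, a receptor for hyaluronan, had 195, 285 and 249.9 CPM in lupeol 50 libraries and 146, 132 and 208 CPM in control libraries (0.59 ± 0.17, edgeR, adjusted p = 0.209), and it passed in 5 of 17 alternative settings. Lupeol 50 replicate 2 was the highest of the 9 libraries for 11 of the 25 targets (44.0%), where it was highest for 13.6% of all genes. Without that library the lupeol 50 value fell from 1.24 to 0.75 for CXCL2 and from 1.08 to 0.75 for CXCL8. It fell from 0.59 to 0.46 for CD44 and from 0.52 to 0.44 for PTGS2. That of CXCL1 was 1.15 or more with any library left out. With all 9 libraries, the subunits and inhibitors themselves had a median of -0.05 at lupeol 50.

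Upstream of IkB, IKBKE, an IKK-related kinase, had 58.0, 69.6 and 45.9 CPM in lupeol 80 libraries and 79.4, 88.7 and 84.1 CPM in control libraries (-0.54 ± 0.14, edgeR, adjusted p = 0.056). RBCK1, a component of the linear ubiquitin ligase, stood at -0.47 ± 0.12 (edgeR, adjusted p = 0.068), and TAB1, a partner of the kinase TAK1, at -0.39 ± 0.12 between the doses (edgeR, adjusted p = 0.145). The signalling kinase IRAK1 had the highest level of this list, 332 to 501 TPM over the 9 libraries, and SHARPIN, of the same ligase, 98.0 to 131 TPM. At lupeol 50, the ubiquitin ligase TRAF6 stood at 0.40 ± 0.13 and the kinase RIPK2 at 0.37 ± 0.14 against control (edgeR, adjusted p of 0.239 and 0.288).

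Among the other negative regulators, the deubiquitinase OTUD7B stood at -0.54 ± 0.15 and TNIP1, which binds A20, at -0.45 ± 0.13 at lupeol 80 against control (edgeR, adjusted p of 0.076 and 0.077). NKIRAS2, which binds IkB proteins, stood at -0.37 ± 0.12 between the doses. At lupeol 50, N4BP1 stood at 0.33 ± 0.14 and RNF11, an A20 partner with the highest level of the list, at 0.27 ± 0.13 against control. ZC3H12A, a ribonuclease that degrades inflammatory mRNA, ranged from 61.2 to 188 TPM over all libraries, with its lowest value in lupeol 80 replicate 3 (46.9 CPM).

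Of the receptors, TNFRSF1B, the TNF receptor 2, had 100.02, 120.5 and 100.5 CPM in lupeol 80 libraries and 126.2, 126.2 and 175 CPM in control libraries (-0.41 ± 0.14, edgeR, adjusted p = 0.116). TNFRSF1A, the TNF receptor 1, stood at -0.35 ± 0.11 between the doses. IL1RAP, the co-receptor for interleukin-1, stood at 0.41 ± 0.13 at lupeol 80 against control (edgeR, adjusted p = 0.099). At lupeol 50, TLR6, a Toll-like receptor, stood at 0.82 ± 0.18 and TNFRSF14 at -0.51 ± 0.18 against control (edgeR, adjusted p of 0.190 and 0.288).

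Of the ligands, TNF had 87.9, 151.9 and 106.6 CPM in lupeol 80 libraries and 139, 89.6 and 241 CPM in control libraries, a spread that covered the difference of -0.44 ± 0.37. Without control B the TNF difference was 0.017. IL1B, which encodes interleukin-1 beta, had 13.7, 76.7 and 32.5 CPM in lupeol 80 libraries and 15.97, 17.4 and 89.8 CPM in control libraries. Control B was the highest control for both cytokines. LTB, which encodes the lymphotoxin beta that feeds the non-canonical route, stood at -1.02 ± 0.29 at lupeol 80 (edgeR, adjusted p = 0.085), and TNFSF13 at -0.68 ± 0.32. At lupeol 50, LTA stood at 1.28 ± 0.47 and was at 0.341 to 1.05 CPM in the controls, so its value rests on few counts.

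**Figure D5:**
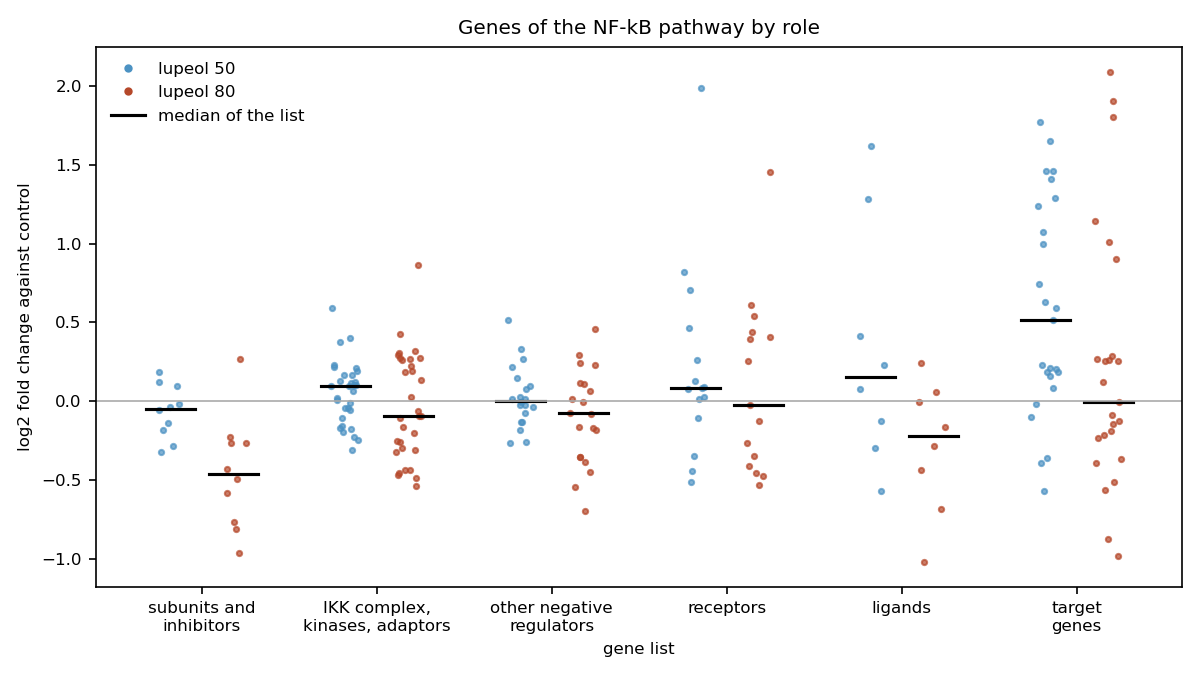
Fold changes (log2) of single genes in the NF-kB lists, for lupeol 50 and lupeol 80 against control, with the median of each list. The subunits and inhibitors have a median of -0.05 at lupeol 50 and -0.46 at lupeol 80, and the targets a median of 0.52 at lupeol 50 and -0.00 at lupeol 80.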

How the data were processed

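RNA-seq was measured in 9 libraries of THP-1, 3 per group. As deposited by the authors, the values are raw counts for each gene, 1 column a library, with gene lengths in bases. Bowtie 0.12.2 and the mouse build mm8 are named, per the submitters' processing notes. That build conflicts with the human Ensembl genes of the table: of 58409 gene IDs shared with GENCODE 29, 42478 have the same position there, on GRCh38. Which program counted reads, whether it used strand and how it treated reads that align to several places was not given in the sources used here. Reads of antisense or overlapping genes and of near-identical copies therefore cannot be told apart.

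The table has 67928 rows, 1 of them empty and left out, and 61414 with a symbol. Genes were kept by filterByExpr (17568), scaled by TMM and tested with edgeR 4.0.16 in R 4.3.3 (robust quasi-likelihood F test). The 3 groups entered a single fit, and p-values were adjusted by Benjamini-Hochberg over the genes tested. The fit had a common biological coefficient of variation of 0.178, with 6 residual and 12 (median) prior degrees of freedom. SE is the absolute log2 fold change over the square root of F. CPM and TPM were computed here from the counts. Alternatives were DESeq2 1.42.0, limma-voom 3.58.1, other size factors, other filters, only the 2 groups compared, each library left out, and control B and lupeol 80 replicate 1 left out together. On simulated counts for lupeol 80 against control (17089 genes), 73% of genes changed by a log2 of 1 and 99% of those changed by 2 were recovered. A further 8 unchanged genes were called. The simulated spread depended on the level of a gene alone, with no outlying library, so recovery in the real libraries may be lower.

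The members and lists were chosen with earlier results of these data known. Besides the 10 genes, the text names called genes of each list, the 2 with the smallest p per contrast where none was called, and the 2 of highest TPM. Of the listed genes, 1 had no row and is not analysed here. Reads carry no molecular identifiers, so errors reflect counting and the spread of these libraries alone.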

Additional observations from a re-analysis of the deposited data

How the results depend on the processing

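Counts of calls moved with the setting more than the fold changes did. For lupeol 80 against control, 201 genes (1.14%) and 1 of the 10 (RELB) were called by edgeR. DESeq2 called 896 of 13467 genes (6.65%) and 3 of the 10, and limma-voom 106 of 17568 (0.603%) and 1 of the 10. Without a filter edgeR called 861 and 3, for means of 5 CPM or more 124 and 0, and with only the 2 groups compared 78 and 0. Without scaling it called 166 and 0, and without control B and lupeol 80 replicate 1 together 860 and 1. For lupeol 50 against control (0 genes called), DESeq2 called 210, no filter 520, only the 2 groups 1, and leaving out that pair of libraries 913. For lupeol 80 against lupeol 50, edgeR called 8 genes (0.0455%) and 0 of the 10. No scaling gave 14 genes, DESeq2 422 (2.99%) and 1 of the 10, and limma-voom 2 (0.0114%). No filter gave 659 and 2 of the 10, at least 5 CPM 5, and leaving out that pair 25. For any difference, edgeR called 41 genes (0.233%) and 0 of the 10. DESeq2 size factors gave 27 genes, DESeq2 1032 and 4 of the 10, and limma-voom 2. No filter gave 1423 and 3 of the 10, at least 5 CPM 1, and leaving out that pair 924. Where no share is printed, here or for the fits below, the number of genes tested in that setting is not given. Counts of the 10 genes in those settings therefore have no background beside them.

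With each library left out in turn, lupeol 50 against control gave 0 to 427 genes and 0 of the 10, lupeol 80 against control 0 to 386 genes and 0 to 3 of the 10, lupeol 80 against lupeol 50 1 to 189 genes and 0 to 1 of the 10, and any difference 1 to 654 genes and 0 to 2 of the 10. The RELB difference at lupeol 80 kept its sign in all 17 alternatives and passed in 6, with adjusted p between 1.83e-06 and 0.194. It was -0.79 without scaling (edgeR, adjusted p = 0.051) and -0.81 with only the 2 groups (0.0589). The cause of these differences was not tested.
Of the fold changes of the 10 genes under the alternatives, 477 kept direction and side of the threshold, 12 passed newly, 11 no longer passed and 10 changed sign. With libraries left out, the lupeol 50 value ranged from -0.051 to 0.0059 for RELA, -0.11 to 0.031 for REL, -0.091 to 0.011 for NFKBIB and -0.071 to 0.33 for BCL3, the lupeol 80 value from -0.13 to 0.58 for REL, and the value between the doses from -0.060 to 0.63 for REL and -0.27 to 0.073 for NFKBIA. Without control B and lupeol 80 replicate 1 together REL stood at -0.19 at lupeol 80 and at -0.060 between the doses. Of the other named genes, at lupeol 50 TAB1 ranged from -0.087 to 0.023, OTUD7B from -0.022 to 0.049, NKIRAS2 from -0.069 to 0.016, TNFRSF1B from -0.061 to 0.21 and EBI3 from -0.23 to 0.18, at lupeol 80 N4BP1 from -0.029 to 0.049, TNF from -0.72 to 0.017 and LTA from -0.30 to 0.65, and between the doses RIPK2 from -0.17 to 0.023, RNF11 from -0.055 to 0.098 and TNFSF13 from -0.30 to 0.18. OTUD7B at lupeol 50 was -0.0074 without scaling and -0.0073 with at least 5 CPM, and without that pair of libraries EBI3 was 0.17 at lupeol 50 and N4BP1 -0.033 and TNF 0.17 at lupeol 80.
No paired analysis was run, because the labels give no culture or date that would pair libraries between groups, and a pair of control columns shares a heading. Adding rows on alternate scaffolds was not run, since 0 such rows carry a listed symbol.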
